A study of Rattus norvegicus with 13 samples.

Results

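The genes described here mark the dopamine neurons of the midbrain: Th, Ddc, Slc6a3, Slc18a2, Nr4a2, Pitx3, En1 and Aldh1a1. They were found as every probe set (a group of short array probes combined to 1 value) whose only gene symbol in the platform annotation was one of these 8. Each of 7 genes had exactly 1 such probe set, out of 14506 genes covered by 15310 probe sets with a single symbol. En1, a homeobox gene of midbrain dopamine neurons, had no probe set under this rule and is not analysed here. The diet test and the correlations between these genes used no filter on dim signals, so all 7 measured genes stayed in them.

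RNA came from the brain without the cerebellum of male rats of the inbred Fischer F344 strain, killed at 15 months of age. In the fructose group (6 arrays) the mothers ate a diet high in fructose through gestation and lactation, starting on gestation day 1. In the control group (7 arrays) the mothers ate a control diet over the same period. All offspring were weaned on day 20 and then ate the same chow, and the labels name neither litters nor whether each array is a separate animal, so a p-value covers only the spread over these 13 arrays, which may be partly technical.

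Dopamine neurons make dopamine from tyrosine: tyrosine hydroxylase (Th) takes the rate-limiting step and aromatic amino acid decarboxylase (Ddc) the one after it. The vesicular monoamine transporter (Slc18a2) loads dopamine into vesicles, and the dopamine transporter (Slc6a3) takes it back up from the synapse. The nuclear receptor Nr4a2 (Nurr1) and the homeobox factor Pitx3 are needed for the development and upkeep of these neurons in rodents. In mice, Nr4a2 is needed for Th, Slc6a3 and Slc18a2 to be expressed there. These cells are a small share of the brain, and several of the genes are also used elsewhere: Th and Slc18a2 in noradrenaline neurons, Ddc and Slc18a2 in serotonin neurons, and Nr4a2 in cortical and claustral neurons.

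The promoter letters below show where 2 regulatory elements lie before genes whose signals are set against each other here. NBRE, the element that a single Nr4a2 molecule can bind, was searched as AAAGGTCA, and CRE, the element of the cAMP response, as TGACGTCA, which is its own reverse complement. Both strands of the 250 bases before each start site were searched, and the 2 elements did not overlap in the stretches shown. The sequences are RefSeq's, on the rat assembly GRCr8, and all 8 genes matched, with 10 windows in all since Ddc had 3. Capitals mark the element.
Th, chr1:207508277-207508468, minus strand: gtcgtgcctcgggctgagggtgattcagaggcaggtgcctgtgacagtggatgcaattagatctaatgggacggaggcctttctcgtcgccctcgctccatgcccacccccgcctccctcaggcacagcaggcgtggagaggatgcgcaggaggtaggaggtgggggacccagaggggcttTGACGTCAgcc
Ddc, chr14:90682831-90683033, minus strand: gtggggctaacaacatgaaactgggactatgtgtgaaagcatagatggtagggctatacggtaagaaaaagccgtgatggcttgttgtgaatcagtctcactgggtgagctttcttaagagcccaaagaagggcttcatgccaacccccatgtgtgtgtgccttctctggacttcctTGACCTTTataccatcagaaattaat
Slc18a2, chr1:268399958-268399987, plus strand: agtgctatccgTGACGTCAgagccggactg

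In Th the CRE spans positions -69 to -62 relative to the start site, and in Slc18a2 it spans -52 to -45. The NBRE of Ddc, read on the gene's own strand as TGACCTTT, spans -73 to -66 in 1 of its 3 windows. The NBRE letters stood in 1 of the 10 windows of these genes, against 415 of 33469 windows over all rat genes (1.24%). The CRE letters stood in 2 of the 10, against 531 of 33469 (1.59%). A match is a description of letters, and no match says only that these letters are not in the window.

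The deposited values were log2 signals of an Affymetrix rat gene array. Array medians ran between 7.99 and 8.07. Control replicates 1 and 2 had the narrowest distributions, with interquartile ranges of 2.185 and 2.146 on the log2 scale, against 2.265 to 2.5 on the other arrays, so results that rest on that pair are given without it as well. The neuronal gene Snap25 read 13.31 to 13.4 on fructose arrays and 13.2 to 13.4 on control arrays. Slc17a6, a glutamate transporter of thalamus and brainstem neurons, read 8.04 in fructose replicate 4, 7.83 in fructose replicate 3 and 9.15 in control replicate 8, against 6.07 to 6.82 elsewhere. Its signal set 3 arrays apart from the rest. Taking a linear relation to Slc17a6 out of both genes gave r of Nr4a2 of -0.21 with Th, -0.383 with Ddc, -0.203 with Slc6a3 and 0.0312 with Slc18a2. In RNA of the brain without the cerebellum, fewer dopamine neurons and less RNA per neuron cannot be told apart. The table has no detection p-values, and the probe sets of Ddc, Slc6a3 and Slc18a2 were among the dimmest 30% by mean signal (below 7.11).

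None of the 7 genes passed the test between the diets, and the groups overlapped for each. In the limma fit over 15633 probe sets, 0 (0%) passed an adjusted p of 0.05 and 348 (2.23%) had an unadjusted p under 0.05. The 7 genes gave 0 at either limit, with unadjusted p-values of 0.121 to 0.964 and an adjusted p of 0.999804 each.

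Th read 7.09 at the lowest, 7.46 at the median and 7.59 at the highest among fructose arrays, against 7.30, 7.54 and 7.94 among control arrays. The lowest value was fructose replicate 3 and the highest control replicate 5, with 5 of the 6 fructose arrays inside the control range. Th averaged 7.43 ± 0.182 in fructose brains (SD, n = 6) and 7.57 ± 0.198 in control brains (SD, n = 7). The difference was -0.15 on the log2 scale, with a 95% interval of 0.783 to 1.04-fold, and the exact two-sided permutation test over 1716 splits gave p = 0.212.

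Ddc, which also serves serotonin and noradrenaline neurons, read 6.54 to 6.62 with a median of 6.57 on fructose arrays and 6.43 to 6.76 with a median of 6.56 on control arrays. All 6 fructose arrays lay inside the control range. The means were 6.57 ± 0.0261 in fructose brains (SD, n = 6) and 6.58 ± 0.114 in control brains (SD, n = 7). The difference was -0.01 (95% interval 0.921 to 1.07-fold; exact permutation p = 0.868).

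The transporters were as close. Slc6a3, found almost only in dopamine neurons, read 6.47 to 6.81 with a median of 6.65 on fructose arrays and 6.54 to 6.94 with a median of 6.70 on control arrays. It averaged 6.64 ± 0.14 in fructose brains (SD, n = 6) and 6.71 ± 0.138 in control brains (SD, n = 7), a difference of -0.07 (95% interval 0.853 to 1.06-fold; exact permutation p = 0.353). Fructose replicates 7 and 8 were lower than any control array.

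Slc18a2, shared by all monoamine neurons, read 6.51 to 6.60 with a median of 6.53 on fructose arrays and 6.30 to 6.64 with a median of 6.51 on control arrays. Its means were 6.55 ± 0.0398 in fructose brains (SD, n = 6) and 6.52 ± 0.119 in control brains (SD, n = 7). The difference was 0.03 (95% interval 0.944 to 1.11-fold; exact permutation p = 0.59), and every fructose array lay inside the control range.

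Aldh1a1, an aldehyde dehydrogenase of a ventral subset of dopamine neurons in rodents, read 7.13 to 7.61 with a median of 7.28 on fructose arrays and 6.88 to 7.63 with a median of 7.23 on control arrays. It averaged 7.32 ± 0.199 in fructose brains (SD, n = 6) and 7.26 ± 0.268 in control brains (SD, n = 7), a difference of 0.06 (95% interval 0.876 to 1.24-fold; exact permutation p = 0.659). The annotation of this probe set lists 4 transcripts, and 1 of them is not listed under Aldh1a1 in the gene table used. Its signal may thus include a related transcript. Which cells gave the Aldh1a1 signal was not tested.

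Nr4a2 differed far more between arrays than between diets. Fructose replicates 1, 2, 3, 4, 7 and 8 read 8.72, 8.72, 10.34, 11.29, 8.49 and 9.50. Control replicates 1, 2, 3, 4, 5, 7 and 8 read 9.09, 9.37, 10, 9.31, 9.77, 10.47 and 8.70. Fructose replicate 4 was the highest of all 13 and fructose replicate 7 the lowest, so both extremes lay in the fructose group. The distance between them was 2.8 log2 units, or 6.96-fold.

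Nr4a2 averaged 9.51 ± 1.11 in fructose brains (SD, n = 6) and 9.53 ± 0.594 in control brains (SD, n = 7). The difference was -0.02 with a 95% interval of 0.535 to 1.82-fold (exact permutation p = 0.977). Pitx3 gave a narrower answer. It read 7.32 to 7.41 with a median of 7.37 on fructose arrays and 7.32 to 7.70 with a median of 7.44 on control arrays, and all 6 fructose arrays were below the control mean.

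Pitx3 averaged 7.37 ± 0.0382 in fructose brains (SD, n = 6) and 7.46 ± 0.121 in control brains (SD, n = 7). The difference was -0.09 (95% interval 0.869 to 1.02-fold; exact permutation p = 0.0781), the smallest p of the 7 genes. Its highest signals were control replicates 2 (7.70) and 1 (7.50), the narrow pair. Without that pair the difference was -0.03 (adjusted p = 0.9525 in the limma fit).

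**Figure D1:**
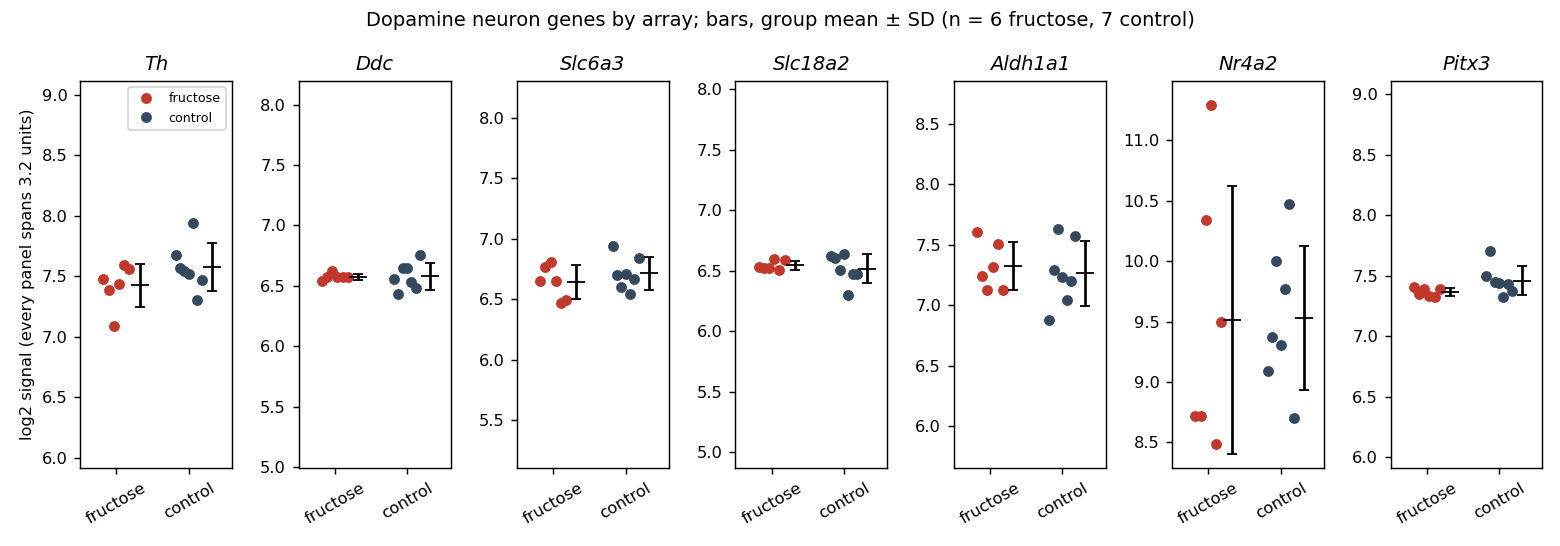
Log2 signal of each gene on each array, fructose (red) left and control (blue) right, with the group mean and SD (n = 6 and 7). Every panel spans the same number of log2 units, so the spread of Nr4a2, 8.49 to 11.29, can be set against the narrow spreads of Ddc (6.43 to 6.76) and Slc18a2 (6.30 to 6.64).

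**Figure D2:**
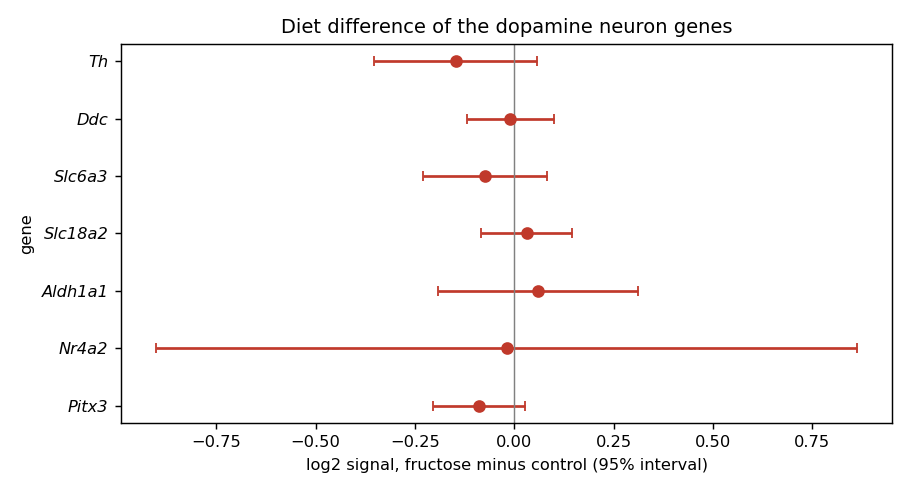
Difference in log2 signal, fructose minus control, for each gene, with its 95% interval from the limma fit. All 7 intervals include 0, and that of Nr4a2, -0.90 to 0.86, is the widest.

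The spread of each gene was set against probe sets of like signal (mean within 0.25 log2 units). Nr4a2 had an SD over the 13 arrays of 0.829, larger than 99.9% of 1291 such probe sets. Aldh1a1 (SD 0.231, above 94.1% of 1649) and Th (SD 0.198, above 90.8% of 1699) were also among the more variable. Slc6a3 (SD 0.138, above 63.0% of 1346) and Pitx3 (SD 0.1, above 35.1% of 1684) were in the middle. Ddc (SD 0.0824, above 10.9% of 1270) and Slc18a2 (SD 0.0894, above 14.1% of 1216) varied little for their brightness.

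Nr4a2 showed no measurable correlation with the 4 synthesis and transport genes over the 13 arrays. With Th, Pearson's r was -0.283 (permutation p = 0.347, adjusted p = 0.832 over all 21 pairs of the 7 genes) and Spearman's rho -0.302 (permutation p = 0.315, adjusted p = 0.9). The array with the most Nr4a2, fructose replicate 4 at 11.29, had a Th signal of 7.44, near the mean of its group, and fructose replicate 3, at 10.34, had the lowest Th signal, 7.09.

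With Ddc, r was -0.173 (permutation p = 0.57, adjusted p = 0.926) and rho -0.159 (permutation p = 0.6, adjusted p = 0.9). With Slc6a3, r was -0.0801 (permutation p = 0.796, adjusted p = 0.974) and rho -0.165 (permutation p = 0.591, adjusted p = 0.9). With Slc18a2, r was 0.00692 (permutation p = 0.982, adjusted p = 0.994) and rho 0.00549 (permutation p = 0.993, adjusted p = 0.997). Nr4a2 spanned 2.8 log2 units over the arrays, against 0.34 for the vesicular transporter.

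Leaving out the 2 arrays farthest from the Nr4a2 median, control replicate 7 and fructose replicate 4, gave r of -0.15 with Th, -0.00787 with Ddc, -0.0448 with Slc6a3 and -0.131 with Slc18a2. Within the diets the values were scattered. Among the 6 fructose arrays r was -0.433 with Th, 0.452 with Ddc, 0.286 with Slc6a3 and 0.69 with Slc18a2, with exact permutation p-values of 0.396, 0.4, 0.571 and 0.104. Among the 7 control arrays r was -0.184 with Th, -0.513 with Ddc, -0.688 with Slc6a3 and -0.34 with Slc18a2, with exact permutation p-values of 0.709, 0.237, 0.0881 and 0.454. The signs thus differed between the diets for Ddc, Slc6a3 and Slc18a2, and the difference itself was not tested.

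**Figure D3:**
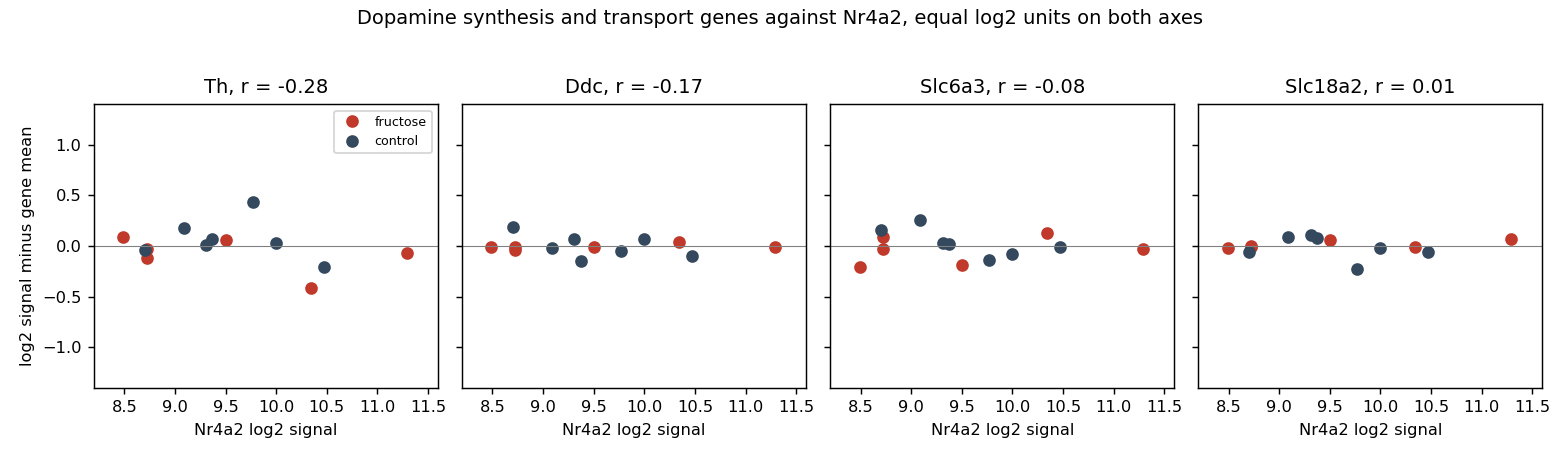
Signal of Th, Ddc, Slc6a3 and Slc18a2, each as log2 signal minus the gene's mean (y axis), against the log2 signal of Nr4a2 (x axis), 1 point per array, fructose red and control blue. Nr4a2 spans 2.8 log2 units, Th 0.85, Ddc 0.33, Slc6a3 0.48 and Slc18a2 0.34. The r with Nr4a2 is -0.283 for Th, -0.173 for Ddc, -0.0801 for Slc6a3 and 0.00692 for Slc18a2.

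Nor did the synthesis and transport genes show a measurable correlation with each other. Their 6 pairs had r of -0.341 to 0.277. The r of Th with Slc18a2, -0.304 (rho 0.0989), turned on 1 array. It was 0.44 without control replicate 5 (permutation p = 0.154, adjusted p = 0.665), which had the highest Th and the lowest Slc18a2 signal. Without fructose replicate 3 as well it was 0.533 (permutation p = 0.092). Th and Slc6a3, which dopamine neurons express together, had r = -0.341 (permutation p = 0.254, adjusted p = 0.832), rho = -0.368 (permutation p = 0.219) and r = 0.0147 without the 2 arrays farthest from the Th median. Within the fructose arrays the same pair had r = -0.86 (exact permutation p = 0.00833, adjusted p = 0.175 over the 21 pairs), against r = -0.23 (exact permutation p = 0.632) within the control arrays. Without control replicate 1 the pair had r = -0.615 over 12 arrays, and without the narrow pair r = -0.637 over 11, which did not pass either (adjusted p = 0.619).

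Over all 21 pairs, 6 correlations were positive and 15 negative, with a median of -0.0801, and 0 had an unadjusted permutation p under 0.05 by Pearson's r or by Spearman's rho. The smallest adjusted p was 0.832 for r and 0.9 for rho. The highest r was that of Slc18a2 with Pitx3, 0.477 (permutation p = 0.101, rho 0.517, 0.435 without control replicates 4 and 5). It was -0.103 after a renewed quantile normalization. The lowest was Ddc with Pitx3, -0.429 (permutation p = 0.15, rho -0.127), which was 0.188 without control replicates 2 and 8 and 0.111 without the narrow pair.

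**Figure D4:**
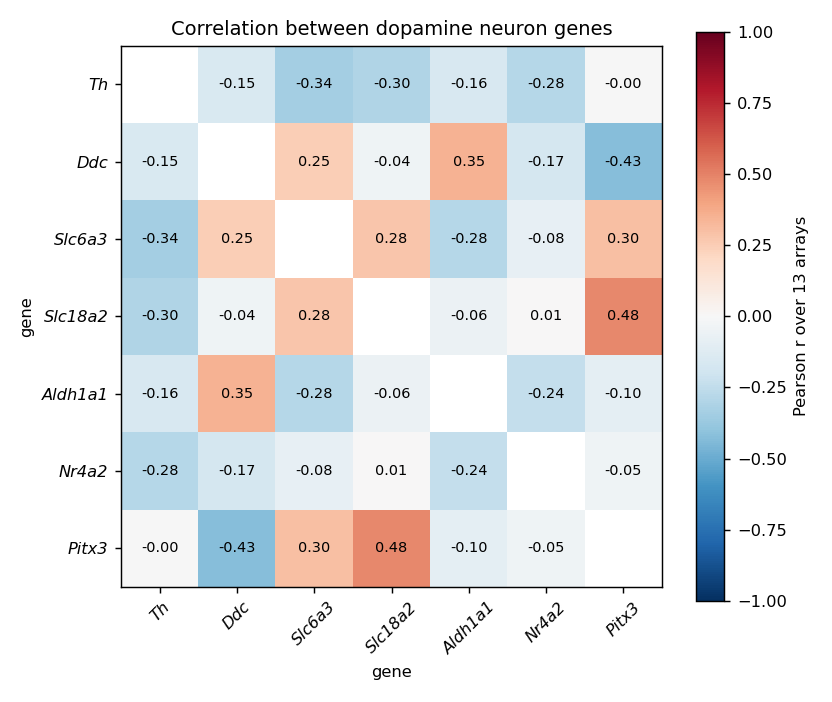
Pearson's r over 13 arrays for each pair of genes, red positive and blue negative, on a scale of -1 to 1. The 21 values run between -0.43 and 0.48, with 15 of them below 0.

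None of the 21 pairs reached 0.6 in size. Among the other 15309 probe sets with 1 gene, the share at 0.6 or more in size was 4.72% for Th, 6.06% for Ddc, 4.68% for Slc6a3, 15.6% for Slc18a2, 6.78% for Aldh1a1, 3.14% for Nr4a2 and 21.7% for Pitx3. The high share of Pitx3 was 6.57% without control replicates 1 and 2, and that of Slc18a2 was 12.7%. For Th and Nr4a2 the shares were higher without that pair, 11.7% and 6.0%. An r of this size is more common by chance over fewer arrays, so shares over 11 and 13 arrays are not directly comparable.

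The genes most like each member, by Pearson's r over the 13 arrays, were ranked among probe sets outside the dimmest 30%, a filter that kept Ddc, Slc6a3 and Slc18a2 from being listed themselves. For Th they were Afg1l (0.872, rho 0.736), Ets1 (0.86, rho 0.758) and Leo1 (0.852, rho 0.851). For Ddc they were Ip6k1 (0.886, rho 0.812), Fut10 (0.868, rho 0.636) and Pax6 (0.865, rho 0.702). For Slc6a3 they were Rpl7a (0.853, rho 0.846), Vangl2 (0.808, rho 0.78) and E4f1 (0.802, rho 0.813). Each was picked as the highest of all such values, so its size alone says little.

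For Slc18a2 the list was Nos2 (0.892), Krtap31-1 (0.887) and Foxh1 (0.88), and for Aldh1a1 it was Kif13b (0.908), Fkbp7 (0.901) and Prodh (0.894). For Pitx3 it was Hist1h2an (0.922), Hist1h2af (0.906) and Itgal (0.893), which had 0.58, 0.684 and 0.324 without the narrow pair. Those of Slc18a2 and Aldh1a1 stayed at 0.847 or more without that pair.

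Nr4a2 was most like Cbln1, a secreted synapse organizer (r = 0.857, rho = 0.626), Fbxl6 (r = 0.812, rho = 0.698) and the amino acid transporter Slc7a8 (r = 0.801, rho = 0.577). Without fructose replicate 4 the values were 0.758, 0.795 and 0.63. Cbln1 itself read 8.43 in fructose replicate 4 and 6.75 to 7.43 on the other fructose arrays, against 6.97 to 7.66 on control arrays.

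Since Nr4a2 stood apart, 2 further gene lists were drawn up after its values had been seen, and they are described without a test. The first held genes induced by neuronal activity, a class to which Nr4a2 belongs. The 10 measured of 12 had a median r with Nr4a2 of -0.0753, with 4 above 0 and 6 below. Its relative Nr4a3 had r = 0.626 and Nr4a1 had r = 0.0013, while Fos had -0.0546, Arc -0.212 and Egr1 -0.337. Without fructose replicate 4, where Arc (8.25) and Egr1 (10.33) were the lowest of the fructose arrays, the median was 0.34. Without control replicate 7 as well, the median was 0.122 and Nr4a3 had r = 0.26. Within the fructose arrays the median was -0.672 and within the control arrays 0.626, a difference that was not tested.

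The second list held genes of the claustrum and the deep layers of cortex, where Nr4a2 marks neurons in rodents. Of 11 measured among 14, 10 had a positive r with Nr4a2 and the median was 0.618 (median rho 0.505), against a median of -0.0385 and 44.7% positive over all other 15309 probe sets. Ntng2, a netrin of claustral neurons, had r = 0.8, Moxd1 0.75, Nxph3 0.696, Lxn 0.633 and Ccn2 0.618, with Cplx3 between the last pair. Gnb4 (0.47), Nxph4 (0.36), Tle4 (0.346) and Oprk1 (0.211) were lower, and Synpr was negative at -0.147.

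Ntng2 read 8.49 and 8.48 in fructose replicates 3 and 4 and 8.01 to 8.19 on the other fructose arrays, against 7.99 to 8.40 on control arrays. Its 3 highest arrays, fructose 3, fructose 4 and control 7, were also the 3 with the most Nr4a2. Lxn was highest in control replicate 5 (10.47), which had a middling Nr4a2 signal of 9.77. Both genes kept a positive r without the extreme array: without fructose replicate 4, r was 0.717 for Ntng2, 0.848 for Lxn and 0.806 for Gnb4, while Tle4 was at -0.165.

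The median r of this list was 0.414 without fructose replicate 4, 0.299 without control replicate 7 as well and 0.624 without the narrow pair. It was 0.838 within the fructose arrays and 0.383 within the control arrays. The same list had a median r of -0.136 with Th, -0.0664 with Ddc, 0.125 with Slc6a3, -0.119 with Slc18a2, -0.174 with Aldh1a1 and 0.0285 with Pitx3. For the 16 other markers of midbrain dopamine neurons, the median r with Nr4a2 was 0.013, with 8 above 0 and 8 below. It was -0.147 without fructose replicate 4, 0.54 within the fructose arrays and -0.228 within the control arrays. Gfra1, a GDNF co-receptor (0.76), and the neurotensin receptor Ntsr1 (0.663) stood highest among them. Which cells gave the signals of these 16 genes cannot be told in RNA of the brain without the cerebellum. Drd2 stood in the striatum list as well, and Cck averaged 11.12 in fructose brains, against 6.64 for Slc6a3. The list median is therefore not a measure of dopamine neurons alone.

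**Figure D5:**
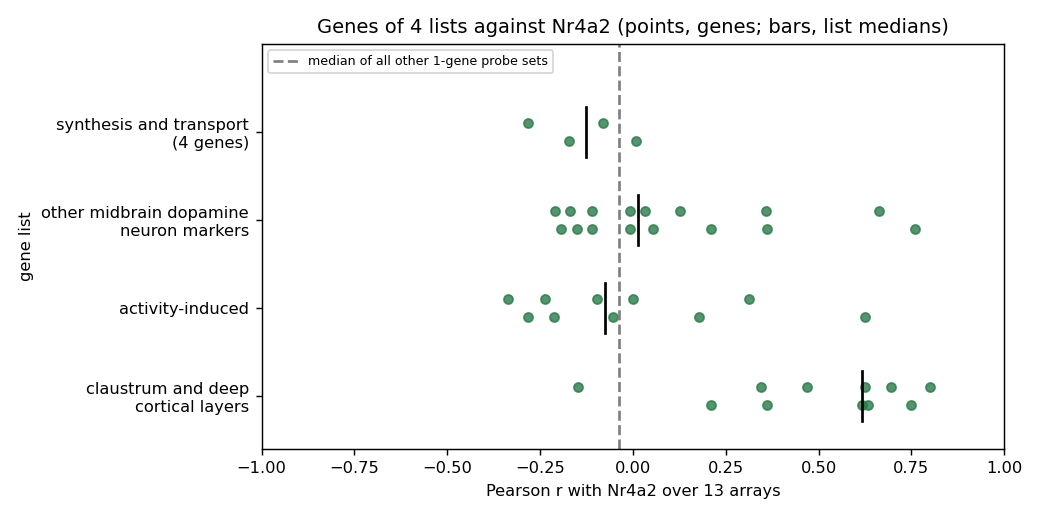
Pearson's r of single genes (points) with Nr4a2 over 13 arrays, for 4 gene lists, with list medians as black bars and the median of all other probe sets with 1 gene, -0.0385, as a dashed line. The claustrum and deep layer genes, a list drawn up after the values were seen, have a median of 0.618, and the 16 other midbrain dopamine neuron markers one of 0.013.

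Each gene was also set against the mean signal of 11 marker lists of regions and cell types. Of 77 such correlations 0 passed an adjusted permutation p of 0.05. Those nearest to it were Pitx3 with the astrocyte markers (r = -0.781, permutation p = 0.00092, adjusted p = 0.0558, rho -0.721) and with the noradrenaline neuron markers (r = 0.777, permutation p = 0.00145, adjusted p = 0.0558, rho 0.594). Without control replicates 1 and 2 these were -0.487 and 0.398, and both lists had their extreme values on that pair.

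Slc6a3 had r = 0.664 with the olfactory bulb markers (permutation p = 0.012, adjusted p = 0.281, rho 0.731), and 0.589 without fructose replicate 3 and control replicate 8. The olfactory bulb has dopamine neurons of its own, which also express Th. With the same list Th had r = -0.232 (rho -0.0165), and 0.306 without the same 2 arrays. Slc18a2 had r = 0.614 with the serotonin neuron markers (permutation p = 0.0277, adjusted p = 0.312) and rho = 0.791 (permutation p = 0.00186, adjusted p = 0.14). With the noradrenaline neuron markers it had rho = 0.725 (permutation p = 0.00691, adjusted p = 0.14), and Pearson's r gave an adjusted p of 0.312 and was 0.541 without the narrow pair. Without that pair, r with the serotonin neuron markers was 0.543. Serotonin and noradrenaline neurons both use this transporter. However, Slc18a2 had r of 0.6 or more in size with 15.6% of all other probe sets with 1 gene. The cause of these correlations was not tested.

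Ddc had r = 0.643 with the thalamus, midbrain and brainstem markers (permutation p = 0.0307, adjusted p = 0.312), but 0.155 without fructose replicate 2 and control replicate 8. With the astrocyte markers it had r = 0.664 (permutation p = 0.0146, adjusted p = 0.281), and with the noradrenaline neuron markers r = -0.493 (permutation p = 0.0885, adjusted p = 0.462), which was -0.239 without the narrow pair. Aldh1a1 had r = 0.431 with the astrocyte markers (permutation p = 0.14, adjusted p = 0.54). With the meninges and vessel markers it had r = 0.478 (permutation p = 0.0995, adjusted p = 0.479). Its r was positive with all 8 astrocyte genes (median 0.506) and 9 of 11 meninges and vessel genes (median 0.48). Of the 16 other midbrain dopamine neuron markers, 9 were positive (median 0.0641). The medians were 0.365, 0.432 and 0.0594 without the narrow pair. Th had r = -0.616 with the striatum markers (permutation p = 0.0325, adjusted p = 0.312). With markers of the hypothalamus, a region with Th neurons of its own, Th had r = 0.57 (permutation p = 0.0423, adjusted p = 0.362) and rho = 0.478. That r was 0.398 without control replicates 8 and 5, and the 12 single genes of the list had a median r of 0.221 with Th. Nr4a2 had r = 0.495 with the mean of the other midbrain dopamine neuron markers (permutation p = 0.0834, adjusted p = 0.462, rho 0.148), 0.596 without the narrow pair (adjusted p = 0.521) and 0.0507 without control replicate 1 and fructose replicate 4.

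The rest of the dopamine pathway held 0 genes past the threshold in either direction. Over all 15633 probe sets, 54.1% were higher in fructose brains and the median difference was 0.00563 on the log2 scale. Of 5 measured genes for the cofactor of Th, tetrahydrobiopterin, 1 was higher and 4 lower in fructose brains, with a median difference of -0.0208. Pts, which makes a precursor of the cofactor, differed by -0.07 ± 0.0502 (SE), Gch1, the first enzyme of the route, by -0.04 ± 0.0763, its regulator Gchfr by -0.02 ± 0.054, and Qdpr, which regenerates the cofactor, by 0.12 ± 0.118.

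Of 3 measured breakdown genes, 2 were higher and 1 lower, with a median difference of 0.0274. The monoamine oxidases Maoa and Maob differed by -0.02 ± 0.0533 and 0.03 ± 0.0944 (SE), and Aldh2, which oxidizes the aldehyde they leave, by 0.03 ± 0.0663. Of 9 receptors and adaptors on the receiving side, 2 were higher and 7 lower, with a median difference of -0.0524. Ppp1r1b (DARPP-32), a striatal target of dopamine signalling, averaged 9.54 ± 0.327 in fructose brains (SD, n = 6) and 9.34 ± 0.336 in control brains (SD, n = 7), a difference of 0.20 ± 0.161 (SE).

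Rgs9, which ends signalling by striatal G proteins, differed by -0.13 ± 0.159, Drd4 by -0.06 ± 0.0645 and Drd3 by -0.06 ± 0.0773 (SE). Of 9 genes of midbrain dopamine neuron development, 4 were higher and 5 lower (median -0.00691). The pioneer factors Foxa1 and Foxa2 differed by -0.13 ± 0.0824 and 0.04 ± 0.0631, En2, the relative of En1, by -0.04 ± 0.0657, and Nr4a1 by 0.08 ± 0.119. Of the 16 other midbrain dopamine neuron markers, 9 were higher and 7 lower (median 0.00313). Among them Chrna4, a nicotinic receptor subunit, differed by 0.08 ± 0.0714, the potassium channel Kcnj6 by 0.07 ± 0.0803, the GDNF receptor Ret by -0.09 ± 0.109 and Satb1 by 0.18 ± 0.205 (SE).

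Markers of neighbouring cells and regions did not pass the test either. All 7 serotonin neuron markers were higher in fructose brains, by a median of 0.0318, and 1 of 4 noradrenaline neuron markers was higher (median -0.0282). Of 12 hypothalamus markers 2 were higher and 10 lower (median -0.131), of 9 olfactory bulb markers 3 and 6 (median -0.049), and of 9 thalamus, midbrain and brainstem markers 3 and 6 (median -0.0952). Striatum markers split 5 higher and 6 lower (median -0.0201), cortex and hippocampus markers 5 and 1 (median 0.116), and astrocyte markers 5 and 3 (median 0.0837). Meninges and vessel markers split 8 and 3 (median 0.014), and blood markers 2 and 3 (median -0.0468). Over these lists 0 genes passed an adjusted p of 0.05 in the limma fit, and 3 had an unadjusted p under 0.05: Synpr (-0.29 ± 0.0823), Emx2 (0.13 ± 0.0505) and Pmch (-0.14 ± 0.0619). Among all 15633 probe sets in that fit, 348 (2.23%) had an unadjusted p under 0.05, and some genes stood in more than 1 list. Of the monoamine markers, Dbh differed by 0.01 ± 0.0851, Tph2 by 0.01 ± 0.0746, Slc6a4 by 0.03 ± 0.065 and Chrna6 by -0.08 ± 0.101 (SE).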

How the data were processed

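The deposited table holds log2 signals for 29214 probe sets on 13 arrays, 6 fructose and 7 control. Per the submitters' processing notes, RMA and R 3.0.1 were used, and the labels state 100 ng of RNA per array. The sources used here give neither an annotation build nor array dates. Of the probe sets, 15310 had 1 gene symbol, 323 several and 13581 none. The number of arrays limits the precision.

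The 15633 probe sets with a gene were fitted with limma 3.58.1 (lmFit, eBayes) in R 4.3.3, with Benjamini-Hochberg adjustment. Exact permutation tests of each gene ran in scipy 1.17.1. Correlations used 100000 permutations (exact within a diet), adjusted over 21 pairs or 77 gene-list relations. The plan named 28 pairs, but En1 had no probe set. Both procedures were tested on simulated data.

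Genes named were the members, up to 4 genes per list with the smallest p, the 3 genes most like each member, and chosen region markers, of which Eomes had no probe set with its symbol alone. Other genes of the lists were named after their values were seen. The members and lists were chosen with earlier results of these data known. Alternatives covered scaling, arrays left out, dim probe sets, the variance model, array weights and the replicate number.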

Additional observations from a re-analysis of the deposited data

Results flagged for a closer look

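In 4 of 26 sets of values (13 genes in each diet group), 1 array stood apart from the rest of its group, where chance flags about 1 in 20, or 5%. The gap to the nearest array as a share of the group's range was 0.757 for Slc17a6 in control replicate 8, which read 9.15 with the next control array at 6.82. It was 0.684 for Tph2, the enzyme of serotonin synthesis, in fructose replicate 8 (6.65, next 6.45). For Ddc it was 0.639 in fructose replicate 3, but the values were 6.62 and 6.57, a gap of a few percent in signal. For the astrocyte gene Aldh1l1 it was 0.578 in control replicate 8 (8.58, next 8.29). Nr4a2 was not among them, although fructose replicate 4 was its highest array.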

How the results depend on the processing

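Under every setting run, 0 probe sets passed in the diet comparison, 0 of 21 pairs passed an adjusted p of 0.05, and the differences of Th, Slc6a3 and Pitx3 and the r of Nr4a2 with Th kept their sign. Th with Slc6a3 was at 0.0147 without control replicate 5 and fructose replicate 3. Other values turned, among them those of the pairs with the highest and lowest r. With the replicate number as a block (6 numbers shared by both groups), Slc18a2 differed by -0.00492 and Nr4a2 by 0.021. The block changed no call. In their deviations from the diet group means, same-numbered arrays correlated at -0.335 to 0.187, and 0 of 6 correlated best with their own number. The numbers thus showed no pairing in signal, which does not say whether they pair the arrays otherwise, such as by litter. Array weights gave Slc18a2 -4.3e-05, and without control replicates 1 and 2 Aldh1a1 was at -0.0108. Leaving out 1 array at a time gave differences of -0.0343 to 0.0202 for Ddc, -0.00492 to 0.0512 for Slc18a2, -0.00452 to 0.121 for Aldh1a1 and -0.374 to 0.185 for Nr4a2. It gave r of -0.236 to 0.0396 for Nr4a2 with Ddc, -0.311 to 0.0263 with Slc6a3, -0.204 to 0.122 with Slc18a2, and -0.504 to 0.0152 for Ddc with Pitx3. Slc18a2 with Pitx3 was -0.103 after quantile normalization and -0.0364 after cyclic loess. Without control replicates 1 and 2, Nr4a2 with Slc6a3 was 0.018 and Ddc with Pitx3 0.111. Within fructose arrays, r was 0.452 for Nr4a2 with Ddc, 0.286 with Slc6a3, -0.0431 for Slc18a2 with Pitx3, 0.0138 for Ddc with Pitx3 and -0.704 for Ddc with Aldh1a1, and within control arrays Nr4a2 with Slc18a2 was -0.34. Of the 77 gene-list relations, 2 passed after quantile normalization and cyclic loess (Ddc with the noradrenaline list, r -0.889 and -0.86, and with the astrocyte list, 0.867 and 0.88). After median centring 2 passed (Pitx3 with the same lists, 0.843 and -0.802). Without 1 array, 0 to 2 passed. Pitx3 passed with the astrocyte list without fructose replicate 2 (-0.818), fructose replicate 7 (-0.792), control replicate 3 (-0.796) or control replicate 8 (-0.843). With the noradrenaline list Pitx3 passed without fructose replicate 7 (0.79) or control replicate 3 (0.814). Slc18a2 passed with the serotonin list without control replicate 5 (0.83). The cause was not tested. A second probe set per gene was not run, since each gene had 1. Without detection p-values, how far the dim genes stood above background is unknown.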
